A study of Rattus norvegicus with 120 samples.

Results

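The nuclear genes of the mitochondrial respiratory chain and ATP synthase were followed in rat kidney under 3 immunosuppressants. The rule that chose the members uses gene names and none of the comparisons, though earlier results of these data were known when it was written. The members were the genes with a probe set of their own whose symbol begins with Nduf, Uqcr, Atp5, Cox4, Cox5, Cox6, Cox7 or Cox8, with Sdha, Sdhb, Sdhc, Sdhd and Cyc1 added. This rule gave 87 of the 14217 genes with a probe set of their own. Of these, 36 belong to complex I, 6 assist its assembly, 4 belong to complex II, 8 to complex III, 17 to complex IV and 16 to complex V. Complex IV includes Cox6c-ps1, a pseudogene that the name rule takes in, and Ndufa4 was listed with complex I by its name although it is now counted as a subunit of complex IV. After the dimmest 25% of all genes were left out, 83 members were tested. The other 4 were Cox6a2, Cox6b2, Cox7b2 and Cox8b. A further 7 probe sets share a member with a near-identical gene (among them those of Atp5mc1, Atp5mc2, Cox7a2, Ndufa10, Ndufs5 and Uqcrb) and were left out. The subunits encoded in mitochondrial DNA were not analysed here.

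All 120 arrays held kidney RNA of male Sprague-Dawley rats, 5 to 7 weeks of age when dosing began. Every rat received one daily intraperitoneal injection, and kidneys were taken 24 hours after the last dose. The 7 treatments were olive oil (the vehicle), cyclosporine (CsA) at 2.5 or 25 mg/kg, tacrolimus (FK506) at 0.6 or 6 mg/kg, and rapamycin (Rapa) at 1 or 10 mg/kg, each for 1, 7, 14 or 28 days. This made 28 groups: 4 rats in each group on days 1, 7 and 14, except 3 rats for FK506 6 mg/kg on day 14, and 4 to 6 rats per group on day 28. CsA and FK506 bind different immunophilins and then inhibit the phosphatase calcineurin, and both can injure the kidney. Rapa binds the same immunophilin as FK506 but inhibits the kinase mTOR. RNA came from portions of both kidneys with all cell types mixed, so fewer cells of a type and less RNA per cell cannot be told apart.

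The respiratory chain sits in the inner mitochondrial membrane. Complex I (NADH dehydrogenase) and complex II (succinate dehydrogenase) pass electrons to ubiquinone, complex III passes them to cytochrome c, and complex IV (cytochrome c oxidase) passes them to oxygen. Complexes I, III and IV pump protons, and complex V (ATP synthase) uses the gradient to make ATP. The proximal tubule and the thick ascending limb of the kidney are rich in mitochondria, because they drive salt and solute uptake. Nuclear respiratory factor 1 (NRF1), ETS factors such as GABP, YY1 and the estrogen-related receptors (ERR) are known regulators of the nuclear genes of the chain.

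The promoters of 4 members are shown as a description of their sequence, and no result below rests on them. Ndufs6 and Atp5pf were the 2 members called lower most often, Cox7a2l was the member called higher most often, and Cox4i1 varied least among the 28 groups. These 4 were chosen after their values were seen. Each window runs from 250 bases before to 50 bases after the transcription start in RefSeq's table of the rat assembly GRCr8, and is written 5' to 3' on the strand of the gene. Capitals mark matches to the letters GCGCANGCG (NRF1), CCGGAAG (ETS), AAGATGGCG (YY1) or TCAAGGTCA (ERR) on either strand.
Ndufs6: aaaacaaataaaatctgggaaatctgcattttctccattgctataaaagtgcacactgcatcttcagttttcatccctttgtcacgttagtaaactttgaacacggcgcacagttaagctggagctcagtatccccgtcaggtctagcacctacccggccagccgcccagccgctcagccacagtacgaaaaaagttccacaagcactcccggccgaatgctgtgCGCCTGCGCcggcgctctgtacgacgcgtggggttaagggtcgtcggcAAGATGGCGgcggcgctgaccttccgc
Atp5pf: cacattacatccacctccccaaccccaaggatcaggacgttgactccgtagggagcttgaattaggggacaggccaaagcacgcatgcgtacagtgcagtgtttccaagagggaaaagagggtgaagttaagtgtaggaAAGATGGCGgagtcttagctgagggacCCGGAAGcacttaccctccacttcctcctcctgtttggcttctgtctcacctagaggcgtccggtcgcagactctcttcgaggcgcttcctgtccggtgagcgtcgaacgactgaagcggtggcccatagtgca
Cox7a2l: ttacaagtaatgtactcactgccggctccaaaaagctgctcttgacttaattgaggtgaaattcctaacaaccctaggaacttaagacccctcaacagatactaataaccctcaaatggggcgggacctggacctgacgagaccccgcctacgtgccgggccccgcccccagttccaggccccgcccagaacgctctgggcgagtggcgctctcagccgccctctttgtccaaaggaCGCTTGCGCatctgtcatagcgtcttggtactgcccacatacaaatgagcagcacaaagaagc
Cox4i1: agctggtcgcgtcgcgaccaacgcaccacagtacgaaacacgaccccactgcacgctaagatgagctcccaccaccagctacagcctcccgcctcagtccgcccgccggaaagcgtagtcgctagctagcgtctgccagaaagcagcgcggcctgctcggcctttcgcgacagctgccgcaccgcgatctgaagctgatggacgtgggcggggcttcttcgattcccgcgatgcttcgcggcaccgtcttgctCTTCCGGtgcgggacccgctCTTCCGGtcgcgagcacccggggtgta
The windows lie at chr1:31797150-31797449 (plus strand), chr11:37375052-37375351 (minus strand), chr6:16936324-16936623 (plus strand) and chr19:65630133-65630432 (plus strand). Ndufs6 holds 1 NRF1 and 1 YY1 match, Atp5pf 1 ETS and 1 YY1 match, Cox7a2l 1 NRF1 match, and Cox4i1 2 ETS matches. Of the 87 members, 78 had a promoter in the table. The NRF1 letters stand in 24.4% of these 78 promoters and in 5.8% of all 33469 promoters of the table. For ETS the shares are 28.2% and 8.75%, for YY1 14.1% and 1.73%, and for ERR 2.56% and 0.433%. Of the 13 members with a promoter that were called lower in 5 or more of the 24 comparisons with vehicle, 2 held an NRF1 match, 5 an ETS match and 2 a YY1 match. Of the 24 members called lower in none, these counts were 8, 4 and 4. A match describes the letters of the window and shows no binding.

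Levels are quantile-normalized log2(intensity + 16), changes are differences of group means on that scale, and errors of changes are standard errors (SE) of a limma model over all 120 arrays. A gene was called at a Benjamini-Hochberg adjusted p under 0.05, adjusted over all 10663 genes of the comparison. The arrays had trimmed means of 232.89 to 250.1 as deposited. All 5273 zeros of the table were in the array of CsA 25 mg/kg replicate 3 at day 28. The 3' to 5' difference of the Gapdh control probe sets, a measure of RNA integrity, was 0.727 ± 0.170 (SD, n = 4, log2) in the day 7 vehicle rats but 0.391 to 0.437 in the 5 treated groups of day 7 other than CsA 2.5 mg/kg. The hybridization controls averaged 9.14 ± 1.05 (SD, n = 5) for FK506 6 mg/kg and 9.66 ± 1.19 (SD, n = 6) for Rapa 1 mg/kg at day 28, and 10.39 to 10.94 in the other 26 groups. Alb, a liver gene, was above 12 on 4 arrays. These were CsA 25 mg/kg replicates 3 (14.49) and 4 (14.38) on day 1, and CsA 2.5 mg/kg replicate 4 on day 14 and replicate 2 on day 28. Every comparison that uses the CsA 25 rats of day 1 therefore rests in part on such arrays. The proximal tubule markers Slc34a1 (13.39 to 13.84) and Lrp2 (12.85 to 13.36) and the thick ascending limb marker Umod (13.32 to 13.98) were high in all 120 kidneys.

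The members were among the brightest genes of the array, and the median member stood at the 97.2th percentile of all genes by mean level. Median levels over the 120 arrays were 11.54 for complex I, 12.53 for complex II, 12.43 for complex III, 10.78 for complex IV and 12.78 for complex V, while the complex I assembly factors lay at 8.26. Levels of different probe sets depend on their probes, so these medians place no complex above another. Bright probe sets were also measured more precisely. At day 28 with 6 rats against 5, the median SE of a change was 0.054 for the members and 0.118 for all genes tested. A share of members called is therefore set below beside the share of all genes called, and part of any gap between them may go with precision, which was not tested.

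Against the vehicle rats of the same day, 1 member was called on day 1 and more from day 7 on, and the changes were small and mostly downward. The fullest pattern was that of Rapa 10 mg/kg at day 28, where 26 of 83 members (31.3%) fell and 2 rose, against 8.16% of all genes called lower and 7.57% called higher. The median member changed by -0.11 there and the median of all genes by -0.01, and 74 of 83 members lay below 0. No change was large: of the 28 calls, none passed 1.5-fold.

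**Figure D1:**
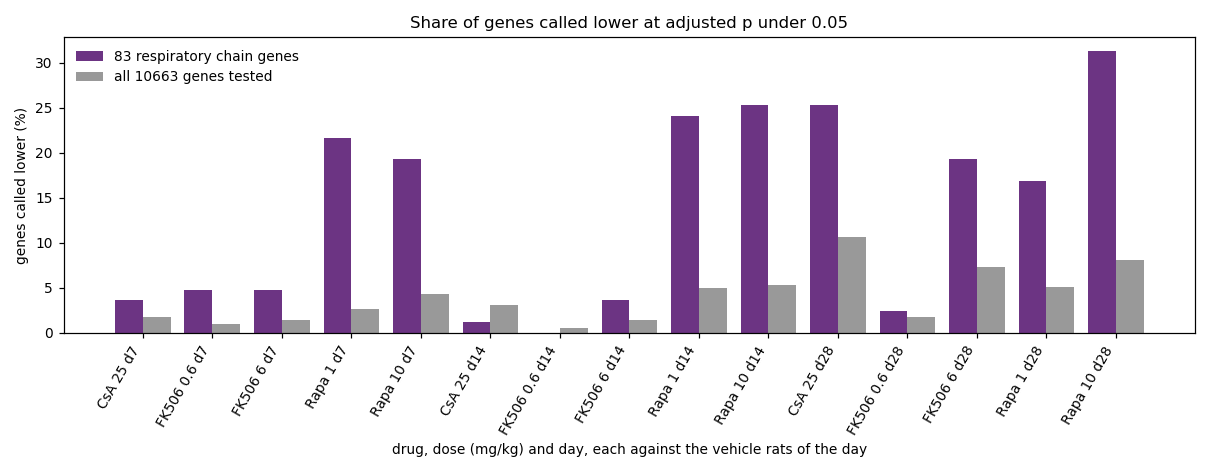
Share of genes called lower (%, adjusted p under 0.05, limma) among the 83 tested respiratory chain genes and among all 10663 genes, for 15 comparisons with the vehicle rats of the day. The share of members is 19.3% or more in both Rapa groups on days 7 and 14, in CsA 25, FK506 6 and Rapa 10 at day 28, and 16.9% in Rapa 1 at day 28.

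On day 1 almost nothing was called. Ndufa8, a complex I subunit of the intermembrane space, fell by 0.24 ± 0.06 (SE, adjusted p = 0.0165, limma) under Rapa 1 mg/kg, the only member called on that day, among 3.08% of all genes. No member was called under Rapa 10 mg/kg, where 2.82% of all genes were, or under CsA 25 mg/kg (0.675%), FK506 6 mg/kg (0.0281%), CsA 2.5 mg/kg (0) or FK506 0.6 mg/kg (0). By limma at an unadjusted p under 0.05 the members of these 5 groups numbered 13, 0, 3, 1 and 0. Without the CsA 25 mg/kg arrays high in Alb, again no member was called, among 0.0469% of all genes. The median member change was then 0.03 in place of -0.02. The Gapdh difference was 0.674 and 0.739 in the Rapa 1 and Rapa 10 rats of this day and 0.326 in the vehicle rats. With this difference as a covariate no member was called under Rapa 1 mg/kg, among 0.422% of all genes. CsA 2.5 mg/kg called no member on any day. All genes called there were 0 on day 7, 0.0656% on day 14 and 0 on day 28, and the members at an unadjusted p under 0.05 by limma were 10, 0 and 2.

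On day 7 the fall was seen with Rapa. Under Rapa 1 mg/kg 18 of 83 members (21.7%) fell and 1 rose, against 2.61% of all genes lower and 1.61% higher. Under Rapa 10 mg/kg 16 members (19.3%) fell and none rose, against 4.3% lower and 3% higher. Median member changes were -0.13 and -0.10, beside -0.04 and -0.03 for all genes. The mean level of the 83 genes was 11.43 to 11.53 in the 4 vehicle rats, 11.32 to 11.36 under Rapa 1 mg/kg and 11.34 to 11.41 under Rapa 10 mg/kg, so neither Rapa group overlapped the vehicle rats. FK506 showed fewer calls, with 4 members lower (4.82%) at each dose, against 1.42% lower and 1.78% higher of all genes at 6 mg/kg and 1.03% lower and 0.9% higher at 0.6 mg/kg. CsA 25 mg/kg showed 3 members lower and 3 higher (3.61% each), against 1.8% and 2.17%. The difference in the Gapdh probe sets of the vehicle rats moved with all of these groups. With that difference as a covariate the calls were 7 under Rapa 1, 7 under Rapa 10 and 1 at each FK506 dose. All genes called were then 1.99% for Rapa 1, 5.33% for Rapa 10, 2.26% for FK506 6 and 0.6% for FK506 0.6 mg/kg. Without vehicle replicate 1 the members called were 10 under Rapa 1, 7 under Rapa 10 and 2 under FK506 6 mg/kg. FK506 0.6 mg/kg had 2 without its own replicate 1. With median centring of each array instead of quantile normalization, the median of all genes was -0.10 for Rapa 1 and -0.16 for Rapa 10. The members called were then 35 and 64, among 5.4% and 18.3% of all genes. For CsA 25 mg/kg that scaling turned the balance to 17 members lower and 1 higher, with a median member change of -0.20 in place of 0.01. All genes called there were 7.72%, and their median was -0.10.

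Complex I, with 36 of the 83 tested members, held most of the day 7 calls. Ndufb9, an accessory subunit of the membrane arm, had 12.99, 13.22, 12.89 and 13.01 in the vehicle rats, 12.74, 12.80, 12.78 and 12.80 under Rapa 1 mg/kg and 12.66, 12.79, 12.69 and 12.80 under Rapa 10 mg/kg. Every Rapa rat lay below every vehicle rat. It fell by 0.25 ± 0.05 (SE, adjusted p = 0.0014, limma) at 1 mg/kg and 0.29 ± 0.05 (adjusted p = 8.02e-05) at 10 mg/kg. Among the other subunits that fell, Ndufv2, a core iron-sulfur subunit, changed by -0.41 under Rapa 1 mg/kg. Ndufb5 and Ndufc1, accessory subunits, changed by -0.28 each under Rapa 10 mg/kg, and Ndufb6 by -0.28. In complex IV Cox5b changed by -0.22 under Rapa 1 mg/kg and -0.21 under Rapa 10 mg/kg, Cox7c by -0.26 and -0.24, and Cox6a1 by -0.23 under Rapa 10 mg/kg. In complex V Atp5mk, a small subunit of the membrane part, changed by -0.29 and -0.19, and Atp5f1c, the gamma subunit of the rotor shaft, by -0.16 and -0.15. Atp5if1, the inhibitory factor, changed by -0.22 under Rapa 10 mg/kg, where one of its 2 dimmer probe sets gave -0.25 and the other 0.54, neither of them called. Uqcr11 of complex III changed by -0.24 under Rapa 1 mg/kg, and Uqcrh, the hinge protein, by -0.21 under Rapa 10 mg/kg.

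A few day 7 calls were shared with the calcineurin inhibitors, whose comparisons use the same vehicle rats. Atp5pf, coupling factor 6 of the stator stalk, had 12.56, 12.47, 12.42 and 12.45 in the vehicle rats. It had 12.18 to 12.23 in the 4 rats of FK506 0.6 mg/kg, 12.15 to 12.28 under FK506 6 mg/kg, and 12.27 to 12.36 under CsA 25 mg/kg. None of these groups reached the lowest vehicle rat. The changes were -0.27 ± 0.05 (SE, adjusted p = 0.000129, limma), -0.26 ± 0.05 (adjusted p = 0.000102) and -0.17 ± 0.05 (adjusted p = 0.0203). Atp5pf also fell under Rapa 1 mg/kg (12.21 to 12.39), by 0.195 ± 0.046 (SE, adjusted p = 0.00478, limma). Under Rapa 10 mg/kg it had 12.28 to 12.40, also below every vehicle rat, and was not called. Ndufs6, a zinc-binding accessory subunit, fell by 0.23 under FK506 0.6 mg/kg, 0.18 under FK506 6 mg/kg and 0.19 under Rapa 1 mg/kg. Rapa 10 mg/kg also had it called lower. Ndufa1 fell by 0.31 under CsA 25 mg/kg, 0.18 under FK506 6 mg/kg and 0.20 under FK506 0.6 mg/kg. Ndufab1, the mitochondrial acyl carrier protein, fell by 0.20 under CsA 25 mg/kg, 0.22 under FK506 0.6 mg/kg and 0.23 under Rapa 1 mg/kg. Ndufab1 was called lower under Rapa 10 mg/kg as well. In the other direction Ndufaf8, a complex I assembly factor, had 8.23, 8.45, 8.73 and 8.86 in the vehicle rats and 8.81 to 9.04 in the rats of CsA 25, FK506 6 and Rapa 1 mg/kg. It rose by 0.40, 0.34 and 0.40 in these 3 groups, and each of their ranges overlapped the highest vehicle rat. The vehicle rats of day 7 were themselves lower than those of day 1 for Ndufaf8 (-0.33 ± 0.09, adjusted p = 0.0277, limma), the only member called between these vehicle groups, among 3.89% of all genes. Ndufa6 rose by 0.26 under CsA 25 mg/kg.

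On day 14 the Rapa groups again stood apart. Rapa 1 mg/kg had 20 members lower (24.1%) and 1 higher, against 4.97% and 4.08% of all genes, and Rapa 10 mg/kg 21 lower (25.3%) and 1 higher, against 5.3% and 5.19%. Median member changes were -0.13 in both, and those of all genes 0.00. The mean level of the 83 genes was 11.47 to 11.52 in the vehicle rats, 11.33 to 11.40 under Rapa 1 mg/kg and 11.31 to 11.39 under Rapa 10 mg/kg, with no overlap. CsA 25 mg/kg (11.35 to 11.45) and FK506 6 mg/kg (11.39 to 11.43) did not overlap the vehicle rats either, but few single members were called. They numbered 1 lower and 2 higher for CsA 25 mg/kg, against 3.14% and 4.75% of all genes, and 3 lower for FK506 6 mg/kg, against 1.44% lower and 1.24% higher. FK506 0.6 mg/kg had 1 member higher and none lower, against 0.375% and 0.497%. The Rapa counts rest in part on vehicle replicate 2: without it they were 9 and 12. With each array centred on its median instead of quantile normalization, Rapa 1 mg/kg had no member lower and 2 higher, and Rapa 10 mg/kg 3 lower and 2 higher. Under that scaling 11.4% and 11.7% of all genes were called. The median of all genes was then 0.11 for Rapa 1 and 0.09 for Rapa 10 mg/kg, and the median member was -0.06 in both.

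**Figure D2:**
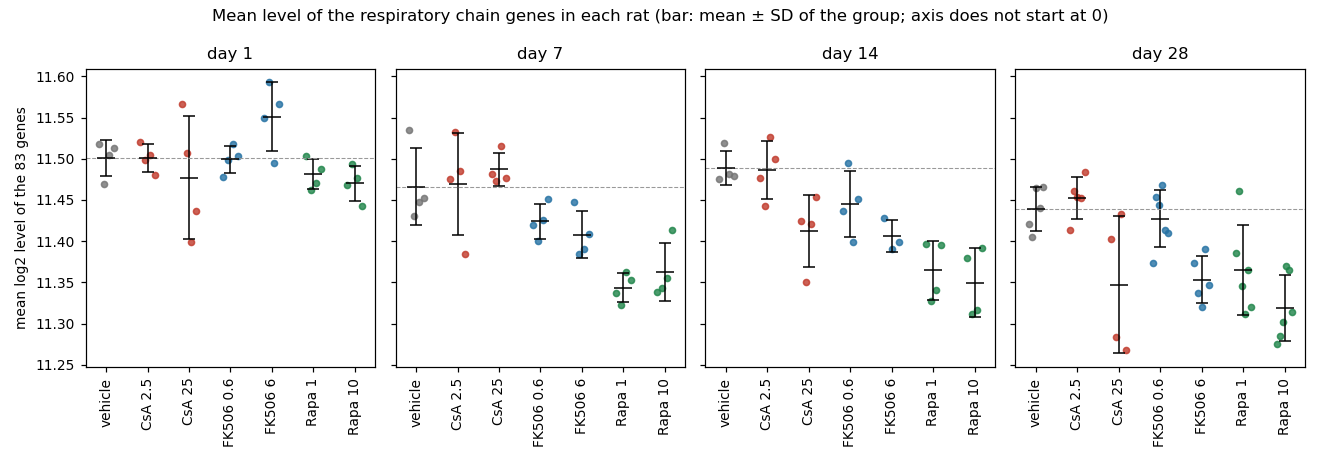
Mean log2 level of the 83 tested respiratory chain genes in each rat, by day and treatment (doses in mg/kg); dots are rats, bars are the mean ± SD of the group, and the dashed line is the vehicle mean of the day. Both Rapa groups lie wholly below the vehicle rats on days 7 and 14, and the 4 CsA 25 rats of day 28 run from 11.27 to 11.43.

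Members of 5 complexes made up the day 14 falls. Uqcr10, a small subunit of complex III, had 12.93, 13.01, 12.99 and 12.95 in the vehicle rats and 12.68, 12.61, 12.70 and 12.76 under Rapa 10 mg/kg. Every rat of the Rapa group was below every vehicle rat, and the fall was 0.28 ± 0.05 (SE, adjusted p = 2.63e-05, limma). Under FK506 6 mg/kg it was 12.78, 12.81 and 12.74, a fall of 0.19 ± 0.05 (adjusted p = 0.0289). Ndufb2, a membrane arm subunit of complex I, had 11.69, 11.84, 11.89 and 11.75 in the vehicle rats, 11.66, 11.57, 11.57 and 11.47 under Rapa 1 mg/kg and 11.55, 11.34, 11.47 and 11.53 under Rapa 10 mg/kg, again without overlap. It fell by 0.22 ± 0.06 (adjusted p = 0.00858, limma) and 0.32 ± 0.06 (adjusted p = 8.26e-05). Among other complex I genes, Ndufs8, a core iron-sulfur subunit, changed by -0.32 under Rapa 1 and -0.34 under Rapa 10 mg/kg, Ndufs4 by -0.55 under Rapa 10 mg/kg and Ndufa12 by -0.28 under Rapa 1 mg/kg. Ndufv3 changed by -0.29 under Rapa 10 mg/kg, while its second probe set gave 0.09 and was not called. Sdhb and Sdhc, the iron-sulfur and membrane anchor subunits of complex II, changed by -0.19 and -0.18 under Rapa 1 mg/kg. Uqcrfs1, the Rieske iron-sulfur protein, and Uqcrc2, a core protein of complex III, both changed by -0.22 in that group. For Uqcrc2 a dimmer probe set gave 0.23 there, not called. With all probe sets fitted apart, that probe set was called higher under FK506 0.6 mg/kg (1.10, adjusted p = 0.0323, limma), where the chosen one gave 0.01. A dimmer probe set of Atp5if1 was likewise called higher under Rapa 10 mg/kg (0.65, adjusted p = 0.0318), where the chosen one gave 0.01. Cox6a1 changed by -0.29 under Rapa 10 mg/kg, and in complex V Atp5mpl changed by -0.25 under Rapa 1 and -0.33 under Rapa 10 mg/kg, and Atp5pb by -0.15 and -0.17. Ndufaf5, an assembly factor, changed by -0.45 under Rapa 10 mg/kg. Under FK506 6 mg/kg Ndufb1 changed by -0.52 and Atp5pf by -0.21, and under CsA 25 mg/kg Ndufs1, the largest core subunit of complex I, by -0.22.

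At day 28 all 3 drugs at the higher dose lowered members. Under CsA 25 mg/kg 21 of 83 (25.3%) fell and 1 rose, against 10.7% of all genes lower and 10.5% higher. Under FK506 6 mg/kg 16 (19.3%) fell and 1 rose, against 7.29% and 8.73%. Under Rapa 1 mg/kg 14 (16.9%) fell and 1 rose, against 5.09% and 4.75%. FK506 0.6 mg/kg had 2 lower and 1 higher, against 1.74% and 2.59%. Median member changes were -0.07 for CsA 25, -0.09 for FK506 6, -0.06 for Rapa 1 and -0.01 for FK506 0.6 mg/kg, against 0.01, 0.01, -0.01 and 0.02 for all genes. The day 28 groups share their 5 vehicle rats, so the values of the drugs stand side by side and are not independent of each other.

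The rats of CsA 25 mg/kg were uneven at day 28. Their mean levels of the 83 genes were 11.40, 11.28, 11.43 and 11.27, against 11.42, 11.41, 11.46, 11.44 and 11.47 in the vehicle rats. Replicates 2 and 4 lay well below every vehicle rat, while replicates 1 and 3 lay just under or within their range. Replicate 3 is the array with the zeros. Without it 23 members were called, among 15.8% of all genes, and without replicate 2 the count was 12. Ndufaf1, an assembly factor called lower there (-0.65 ± 0.22, adjusted p = 0.0272, limma), rests on that array: its level was 4.34 on it and at least 6.56 in the other 3 rats, and without it the change was -0.03 ± 0.19. FK506 6 mg/kg (11.32 to 11.39) and Rapa 10 mg/kg (11.27 to 11.37) did not overlap the vehicle rats, and Rapa 1 mg/kg (11.31 to 11.46) did. Fitted on the arrays of day 28 alone, 4 members were called under Rapa 1 and 14 under CsA 25 mg/kg. All genes called were then 5.95% and 15.1%. With median centring FK506 0.6 mg/kg had 1 member lower and 20 higher, among 14.2% of all genes called. The median member change was then 0.16 and the median of all genes 0.12, against -0.01 and 0.02 with quantile normalization. The calls under that scaling were 7 for CsA 25, 4 for FK506 6, 3 for Rapa 1 and 18 for Rapa 10 mg/kg. All genes called were 23.8%, 14.2%, 6.73% and 11.7%. With the low hybridization controls of FK506 6 and Rapa 1 mg/kg as a covariate, 12 members were called in each of these 2 groups. All genes called were then 6.84% for FK506 6 and 5.36% for Rapa 1 mg/kg.

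Complex I, with 36 of the 83 tested members, gave 10 of the 21 falls of CsA 25, 9 of the 16 of FK506 6 and 12 of the 26 of Rapa 10 mg/kg. Ndufs6 had 12.01, 11.86, 11.96, 11.96 and 11.996 in the vehicle rats, 11.84, 11.70, 11.87 and 11.77 under CsA 25 mg/kg, and 11.74, 11.78, 11.65, 11.64 and 11.73 under FK506 6 mg/kg. Under Rapa 10 mg/kg the lowest, median and highest of 6 rats were 11.76, 11.77 and 11.84, and under FK506 0.6 mg/kg 11.67, 11.78 and 11.83. The FK506 and Rapa 10 rats all lay below the vehicle rats, and 1 CsA rat overlapped them. It fell by 0.25 ± 0.05 (SE, adjusted p = 2.42e-05, limma) under FK506 6, 0.19 ± 0.04 (adjusted p = 0.00372) under FK506 0.6, and 0.18 ± 0.04 (adjusted p = 0.00202) under Rapa 10 mg/kg. Under CsA 25 mg/kg the change was -0.17 ± 0.05 (adjusted p = 0.00863), and under Rapa 1 mg/kg -0.19 ± 0.04. Ndufs6 was called lower in 9 of the 24 comparisons with vehicle, more than any other member.

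Ndufb6, an accessory subunit of the membrane arm, had 11.52, 11.50, 11.63, 11.57 and 11.59 in the vehicle rats of day 28. It had 11.48, 11.17, 11.53 and 11.25 under CsA 25 mg/kg, 11.30, 11.29, 11.34, 11.43 and 11.28 under FK506 6 mg/kg, and 11.10 to 11.39 with a median of 11.23 under Rapa 10 mg/kg. The same 2 CsA rats that were low over all members were low here. The changes were -0.21 ± 0.06 (SE, adjusted p = 0.00739, limma) for CsA, -0.24 ± 0.06 (adjusted p = 0.00145) for FK506 and -0.33 ± 0.05 (adjusted p = 3.03e-06) for Rapa 10 mg/kg. Ndufs3, a core subunit, changed by -0.20, -0.21 and -0.25 under CsA 25, FK506 6 and Rapa 10 mg/kg, and by -0.17 under Rapa 1 mg/kg. Its vehicle rats had 11.44, 11.39, 11.46, 11.38 and 11.35, and the FK506 6 rats 11.14, 11.27, 11.11, 11.24 and 11.21. Ndufb7, another membrane arm subunit, changed by -0.36, -0.25 and -0.26 under the 3 higher doses. Ndufc1 changed by -0.32 under Rapa 10 and -0.29 under Rapa 1 mg/kg, Ndufs8 by -0.26 under Rapa 10 mg/kg, Ndufa11 by -0.31 under FK506 6 mg/kg, and Ndufs1 by -0.22 under CsA 25 mg/kg. Ndufa4, which now counts with complex IV, changed by -0.18 ± 0.05 (adjusted p = 0.00532, limma) under CsA 25 mg/kg. Ndufv1, the flavin-binding core subunit, was the only complex I member called higher at day 28, by 0.14 under Rapa 10 mg/kg, and this gene was singled out after its value was seen. Ndufaf8, higher on day 7, was lower under FK506 6 mg/kg at day 28 (-0.24). With all probe sets fitted apart, dimmer probe sets of Ndufa7 (-0.88, adjusted p = 0.0013, limma) and Ndufaf7 (-0.84, adjusted p = 0.000498) were called lower under CsA 25 mg/kg. The chosen probe sets gave 0.19 and 0.02 there and were not called. These dimmer probe sets were not refitted without the array with the zeros.

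In complex II Sdhc had 12.67, 12.72, 12.70, 12.70 and 12.73 in the vehicle rats. Under CsA 25 mg/kg it had 12.49, 12.41, 12.59 and 12.34, and under Rapa 10 mg/kg 12.38 to 12.62 with a median of 12.52. Both groups lay wholly below the vehicle rats. It fell by 0.25 ± 0.05 (SE, adjusted p = 2.88e-05, limma) and 0.20 ± 0.04 (adjusted p = 0.000227). FK506 6 mg/kg gave -0.11 ± 0.04 (adjusted p = 0.0698), which did not pass. Sdha, the catalytic flavoprotein, and Sdhd were called in none of the 24 comparisons with vehicle.

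In complex III Uqcr11 had 12.46, 12.49, 12.45, 12.41 and 12.59 in the vehicle rats of day 28. Under FK506 6 mg/kg it had 12.27, 12.24, 12.15, 12.36 and 12.30, and under Rapa 10 mg/kg 12.15 to 12.32 with a median of 12.22. Under CsA 25 mg/kg it had 12.48, 12.20, 12.37 and 12.31. FK506 and Rapa rats were below all vehicle rats, and 1 CsA rat overlapped them. The changes were -0.22 ± 0.05 (SE, adjusted p = 0.000529, limma), -0.26 ± 0.05 (adjusted p = 1.02e-05) and -0.14 ± 0.05 (adjusted p = 0.0339). Uqcr10 changed by -0.18 under CsA 25 and -0.13 under Rapa 10 mg/kg, and Uqcrfs1 by -0.18 under Rapa 10 mg/kg. Uqcrc1, a core protein, and Cyc1, cytochrome c1, were called in no comparison with vehicle.

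Complex IV differed among its subunits. Cox6a1, the form of subunit 6a outside muscle, had 12.58, 12.66, 12.66, 12.73 and 12.68 in the vehicle rats of day 28, 12.66, 12.73, 12.70 and 12.60 under CsA 25 mg/kg, and 12.58, 12.70, 12.54, 12.61 and 12.37 under FK506 6 mg/kg. Under Rapa 10 mg/kg it ran from 12.35 to 12.46 with a median of 12.39, below every vehicle and every CsA rat. It fell by 0.27 ± 0.05 (SE, adjusted p = 7.34e-06, limma) under Rapa 10 mg/kg, and compared directly it was higher under CsA 25 than under Rapa 10 mg/kg by 0.27 ± 0.05 (adjusted p = 1.09e-05) and higher under FK506 6 than under Rapa 10 mg/kg by 0.16 ± 0.05 (adjusted p = 0.00994). Cox5b changed by -0.20 under Rapa 10 mg/kg. Cox4i1, which holds the nucleotide-sensing site of the enzyme, had 13.27, 13.26, 13.19, 13.29 and 13.26 in the vehicle rats, 13.24, 13.14, 13.29 and 13.21 under CsA 25 mg/kg, and 13.13 to 13.32 under Rapa 10 mg/kg. These ranges overlapped, and the change under Rapa 10 mg/kg was -0.04 ± 0.04 (adjusted p = 0.637, limma). The pseudogene Cox6c-ps1, at a low mean level of 6.65, changed by -0.57 under FK506 6 mg/kg.

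In complex V Atp5f1c had 13.48, 13.44, 13.39, 13.41 and 13.39 in the vehicle rats of day 28. It had 13.32, 13.19, 13.26 and 13.04 under CsA 25 mg/kg, 13.19, 13.34, 13.23, 13.29 and 13.29 under FK506 6 mg/kg, and 13.17 to 13.31 with a median of 13.26 under Rapa 10 mg/kg. None of the 3 groups overlapped the vehicle rats. The changes were -0.22 ± 0.04 (SE, adjusted p = 8.53e-05, limma), -0.15 ± 0.04 (adjusted p = 0.00514) and -0.17 ± 0.04 (adjusted p = 0.000796). Atp5mf, subunit f of the membrane part, changed by -0.18, -0.21 and -0.20, and Atp5f1a, the alpha subunit of the catalytic head, by -0.19 under CsA 25 mg/kg. Atp5f1d, the delta subunit, fell by 0.19 under Rapa 10 mg/kg and Atp5mpl by 0.18 under CsA 25 and 0.20 under Rapa 10 mg/kg. Atp5f1e, the epsilon subunit, and Atp5pf fell by 0.18 and 0.14 under FK506 6 mg/kg.

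**Figure D3:**
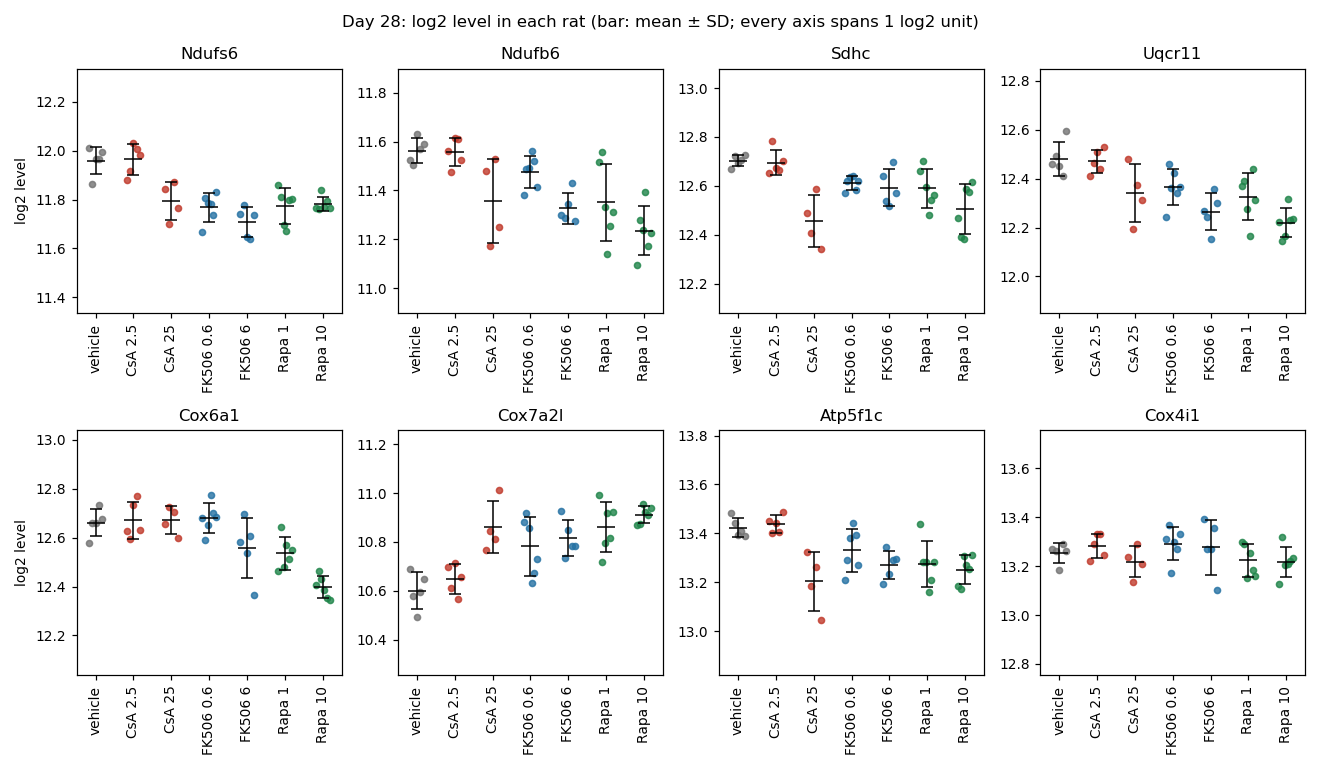
Log2 level of 8 respiratory chain genes in each rat at day 28 by treatment (doses in mg/kg); dots are rats and bars the mean ± SD, and every axis spans 1 log2 unit. Ndufs6, Ndufb6, Uqcr11 and Atp5f1c are called lower under all 3 higher doses, Sdhc under CsA 25 and Rapa 10, Cox6a1 under Rapa 10, Cox7a2l is higher, and Cox4i1 overlaps throughout.

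Cox7a2l went the other way. This gene encodes the factor that joins complexes III and IV into a supercomplex. At day 28 it had 10.69, 10.58, 10.49, 10.60 and 10.65 in the vehicle rats, 10.77, 10.85, 10.81 and 11.01 under CsA 25 mg/kg, and 10.93, 10.73, 10.85, 10.78 and 10.78 under FK506 6 mg/kg. Under Rapa it ran from 10.72 to 10.99 with a median of 10.87 at 1 mg/kg, and from 10.87 to 10.95 with a median of 10.92 at 10 mg/kg. Every rat of these 4 groups was above every vehicle rat. It rose by 0.26 ± 0.06 (SE, adjusted p = 0.0007, limma) under CsA 25, 0.22 ± 0.06 (adjusted p = 0.00407) under FK506 6, 0.26 ± 0.05 (adjusted p = 0.000529) under Rapa 1 and 0.31 ± 0.05 (adjusted p = 9.99e-06) under Rapa 10 mg/kg. FK506 0.6 mg/kg (10.63 to 10.92) overlapped the vehicle rats and gave 0.18 ± 0.05 (adjusted p = 0.0329). CsA 2.5 mg/kg gave 0.05 ± 0.06 and was not called. CsA 25 mg/kg had raised it earlier, by 0.23 ± 0.06 (adjusted p = 0.019, limma) on day 7 and by 0.26 ± 0.06 (adjusted p = 0.00351) on day 14, where the rats had 10.93, 11.11, 10.79 and 10.98 against 10.67, 10.73, 10.73 and 10.64. On day 14 none of the CsA rats overlapped the vehicle rats. The day 14 call and the 4 day 28 calls at the higher doses or with Rapa held under each alternative tried and with each vehicle rat, and each rat of the groups of up to 5, left out in turn, while the day 7 call was lost in 4 of 9 alternatives.

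**Figure D4:**
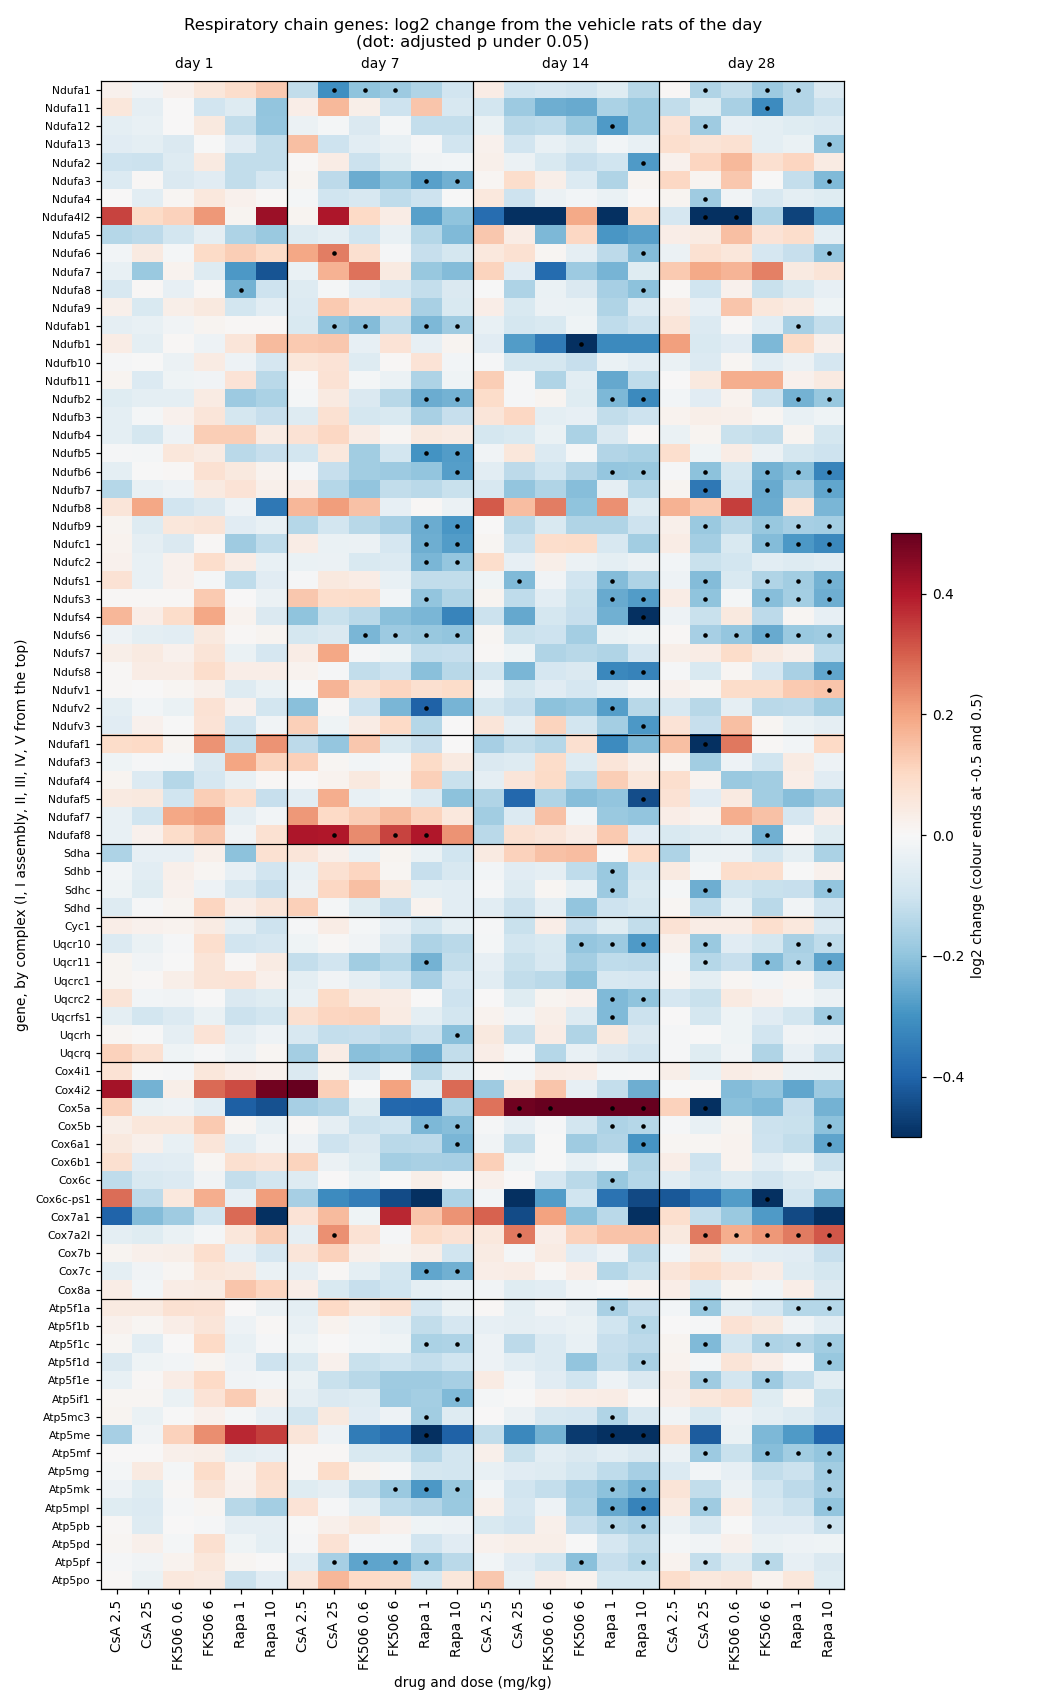
Log2 change from the vehicle rats of the day for the 83 tested respiratory chain genes (rows, by complex) in 24 treated groups (columns, by day, doses in mg/kg); blue is lower, red is higher, and a dot marks adjusted p under 0.05 (limma). Blue dots gather under Rapa on days 7 and 14 and under all 3 drugs at day 28, and the row of Cox7a2l is red at day 28. With median centring in place of quantile normalization the median member change of FK506 0.6 mg/kg at day 28 is above 0. The median of all genes is then 0.12.

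Levels are given for the tissue forms of the complex IV subunits, each as measured by its own probe set. The general forms Cox4i1 (mean 13.27), Cox6a1 (12.63), Cox6b1 (12.55), Cox8a (13.41) and Cox7b (12.90) were at or above the 98.7th percentile of all genes. Their counterparts, which are known from muscle, brown fat, lung or testis, stood at or below the 27.2th percentile: Cox4i2 at 5.83, Cox6a2 at 4.61, Cox6b2 at 5.39, Cox7a1 at 5.94, Cox7b2 at 4.82 and Cox8b at 5.25. Cox7a2 shares its probe set with another gene, and Cox8c was not among the members found. Cox4i1, Cox4i2, Cox6b1, Cox7a1 and Cox8a were called in no comparison with vehicle. Cox7a1 under Rapa 10 mg/kg at day 28 came closest, at -0.73 ± 0.27 (SE, adjusted p = 0.0509, limma).

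Cox8b was the member that varied most, with an SD of 0.41 over the 28 group means, and its spread lay within the groups. It was too dim to be tested. Its level ran from 4.19 to 8.20 with a median of 5.02 over 120 rats. Single rats were high in many groups: 8.20 in FK506 6 mg/kg replicate 1 on day 7 (whose group mates had 5.84, 6.15 and 5.05), 7.88 in Rapa 1 mg/kg replicate 4 on day 14, and 7.80 in CsA 2.5 mg/kg replicate 3 on day 28. These 3 rats were also high in the brown fat genes Ucp1 (8.07, 9.07 and 8.95, median of all rats 4.47) and Cidea (9.72, 10.09 and 9.06, median 7.20). They did not stand out in the brown fat genes Elovl3 (4.94, 4.59 and 5.04, median 4.82) and Dio2 (4.16, 4.83 and 4.80, median 4.36). Elovl3 and Dio2 were dim, with at most 5.72 and 5.68 in any rat, and their relation to Cox8b was not computed. Over the 120 rats Cox8b followed Ucp1 with Pearson's r = 0.76 and Spearman's rho = 0.48 (both permutation p = 1e-05, the smallest that 100000 resamples give). With the 2 rats farthest from the median of Ucp1 left out, r was 0.73. Within groups, on deviations from the group mean, r was 0.77 and rho 0.64. Cidea gave r = 0.69 and rho = 0.39, and the white and brown fat gene Adipoq r = 0.68 and rho = 0.49. Of the 6 relations computed, all had an adjusted permutation p of 2e-05 or less. No group mean of Cox8b is read as a treatment effect here.

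**Figure D5:**
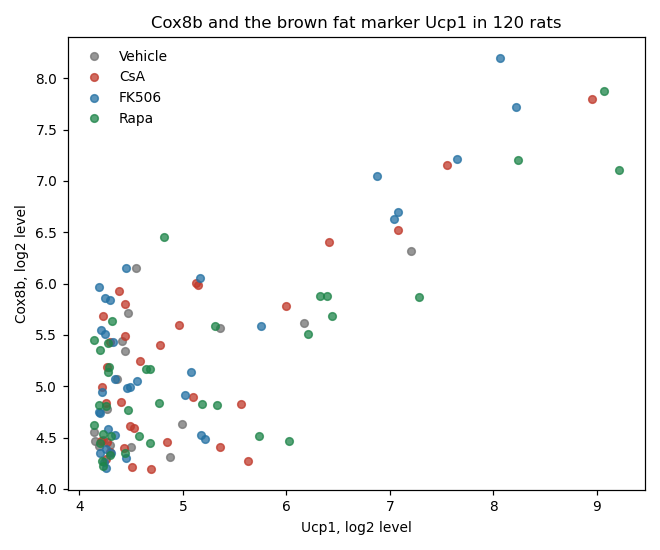
Log2 level of Cox8b against that of the brown fat gene Ucp1 in 120 rats, coloured by drug; each dot is 1 rat. The rats with the highest Cox8b (up to 8.20), which are FK506, Rapa and CsA rats, also have high Ucp1, and Pearson's r over all rats is 0.76.

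Next in variation were Atp5me (SD of the 28 group means 0.37), Ndufa4l2 (0.27) and Cox5a (0.27). Atp5me, subunit e of the membrane part of ATP synthase, ran from a group mean of 12.07 for Rapa 1 mg/kg on day 1 to 10.83 for CsA 25 mg/kg on day 28. On day 14 it had 11.06, 11.74, 11.86 and 11.30 in the vehicle rats and 10.89, 10.79, 10.79 and 10.87 under Rapa 10 mg/kg. Every Rapa rat was lower, by 0.66 ± 0.18 on average (SE, adjusted p = 0.00984, limma). Rapa 1 mg/kg gave -0.57 ± 0.18 (adjusted p = 0.0307), and on day 7 -0.60 ± 0.18 (adjusted p = 0.0387). Its dimmer probe set gave -0.08, -0.16 and -0.12 in these comparisons and was not called.

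Ndufa4l2, a relative of Ndufa4 known as a target of hypoxia-inducible factor, had a low mean level of 6.28. It was lower at day 28 under FK506 0.6 mg/kg (-0.76 ± 0.23, SE, adjusted p = 0.0348, limma) and under CsA 25 mg/kg (-0.68 ± 0.25, adjusted p = 0.0409). Cox5a was called higher on day 14 and lower at day 28, and these days were not compared directly. On day 14 the vehicle rats had 7.52, 6.95, 7.87 and 7.80, and the Rapa 10 rats 8.24, 8.09, 8.18 and 8.31, a rise of 0.67 ± 0.16 (SE, adjusted p = 0.00312, limma). Rapa 1 mg/kg gave 0.66, FK506 0.6 mg/kg 0.63 and CsA 25 mg/kg 0.49 on the same vehicle rats, of which replicate 2 was low. The CsA 25 call was kept in 2 of 9 alternatives and that of FK506 0.6 mg/kg in 5 of 9. Each of these 2 calls held in 3 of 8 fits with 1 rat left out. Both Rapa calls were kept in all 9 alternatives and in 7 of 8 such fits. At day 28 the vehicle rats had 7.86, 7.99, 8.06, 8.43 and 8.36 and the CsA 25 rats 7.42, 7.36, 7.87 and 7.43, a fall of 0.62 ± 0.16 (adjusted p = 0.00168). A second probe set that Cox5a shares with another gene was left out. The members that varied least over the 28 group means were Cox4i1 (SD 0.037), Atp5f1b, the beta subunit of the catalytic head (0.044), and Cox8a (0.047). These members stood at the 99.7th, 99.9th and 99.8th percentile of all genes by mean level. Whether their small spread goes with their brightness was not tested. Of these, Atp5f1b was called once, lower under Rapa 10 mg/kg on day 14. In all, 25 of the 83 tested members were called in none of the 24 comparisons with vehicle.

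The higher doses of the drugs were also compared with each other, in 12 comparisons, with p adjusted over all genes of each. FK506 6 and Rapa 10 mg/kg differed in 1 member on day 1 (Ndufa12, 0.24 higher under FK506), none on day 7, 5 on day 14 and 5 on day 28. All genes called were 1.56%, 6.44%, 9.41% and 11%. By limma 15 members had an unadjusted p under 0.05 on day 7. The 5 of day 14 were Uqcrc2 (0.22), Ndufb2 (0.26), Ndufc1 (0.26), Ndufa5 (0.38) and Ndufs4 (0.43), and those of day 28 were Cyc1 (0.16), Cox6a1 (0.16), Ndufs7 (0.17), Ndufa3 (0.22) and Atp5f1d (0.22), each higher under FK506 and each named after its value was seen. CsA 25 and FK506 6 mg/kg, the 2 calcineurin inhibitors, differed in 2 members on day 7, Cox7a2l (0.24) and Ndufa6 (0.26), both higher under CsA, among 0.938% of all genes. They differed in none on days 1, 14 and 28, where 0.694%, 1.97% and 5.7% of all genes were called and 11, 7 and 14 members had an unadjusted p under 0.05 by limma. At day 28 the median member differed by 0.01 between them.

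CsA 25 and Rapa 10 mg/kg differed in the most members. On day 7, 19 were higher under CsA and 1, Ndufa1, lower (24.1% of members called, against 9.43% of all genes), with a median difference of 0.13. On day 14, 10 were higher and 1 lower (13.3% against 14.7%), and on day 28, 11 higher and 1 lower, Ndufaf1, which rests on the array with the zeros (14.5% against 19.9%), so the share of members on these days was below that of all genes. On day 1 Ndufb8 alone differed (0.55, among 6.64% of all genes). Ndufa6 was higher under CsA 25 than under Rapa 10 mg/kg by 0.34 ± 0.07 (SE, adjusted p = 0.000118, limma) on day 7, 0.29 ± 0.07 (adjusted p = 0.000726) on day 14 and 0.27 ± 0.06 (adjusted p = 0.0004) on day 28, and was named after these values were seen.

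Dose mattered for CsA. At day 28, 22 members were lower and 1 (Cox7a2l, 0.21) higher under CsA 25 than under CsA 2.5 mg/kg (27.7% called, against 18.4% of all genes). This contrast includes the CsA 25 array with the zeros and the CsA 2.5 array high in Alb, and was not refitted without them. Sdhc differed by -0.24 ± 0.05 (SE, adjusted p = 6.65e-05, limma) and Atp5f1c by -0.23 ± 0.04 (adjusted p = 3.93e-05). Between FK506 6 and 0.6 mg/kg 2 members differed, Ndufs3 (-0.20 ± 0.05, adjusted p = 0.0232, limma) and Ndufb8 (-0.59 ± 0.15, adjusted p = 0.0255), among 1.62% of all genes. Between Rapa 10 and 1 mg/kg none did, among 0.122% of all genes, with 13 members at an unadjusted p under 0.05 by limma and a median difference of -0.05.

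Time alone brought few single members to a call in the vehicle rats. Their mean level over the tested members was 11.501 on day 1 (11.469 to 11.518). On day 28 it was 11.439 (11.405 to 11.466), below every day 1 rat, and this difference of means was not tested. The vehicle rats of day 7 (11.43 to 11.53) and day 14 (11.47 to 11.52) overlapped those of day 1. No member was called between day 14 and day 1, among 0.366% of all genes, and 6 had an unadjusted p under 0.05 by limma. Between day 28 and day 1, 3 were lower among 2.08% of all genes: Ndufa5 (-0.41 ± 0.10, SE, adjusted p = 0.0139, limma), Ndufa2 (-0.29 ± 0.06, adjusted p = 0.00164) and Atp5mpl (-0.24 ± 0.07, adjusted p = 0.0304). The change of the drug effect from day 1 to day 28 was tested directly. It was called for 9 members under FK506 6 mg/kg, all downward (10.8%, against 3.3% of all genes), for 7 under Rapa 10 mg/kg, all downward (8.43%, against 5.54%), and for 2 under CsA 25 mg/kg, Atp5f1a down and Cox7a2l up (2.41%, against 4.97%). The CsA rats of day 1 include replicates 3 and 4, which were high in Alb, and the contrast was not refitted without them. Under FK506 Ndufs6 gave -0.30 (adjusted p = 0.00574, limma) and Ndufs3 -0.34 (adjusted p = 0.00637).

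Other mitochondrial genes were read from lists drawn up with earlier results of these data known. Of 15 tested genes of the tricarboxylic acid cycle and pyruvate dehydrogenase, 9 fell and none rose under each Rapa dose on day 14 (median changes -0.21 and -0.23). At day 28, 6 fell and none rose under Rapa 10, 6 fell and 1 rose under CsA 25 (8 and none without the array with the zeros), and 1 fell and 1 rose under FK506 6 mg/kg. Idh3a, a subunit of isocitrate dehydrogenase, changed by -0.37 on day 14 and -0.33 on day 28 under Rapa 10 mg/kg, and Suclg1, of succinyl-CoA ligase, by -0.35 and -0.22, while Suclg1 was the gene that rose under FK506 6 mg/kg (0.18). Of 16 electron carriers and feeder enzymes, 5 fell under Rapa 10, 4 under Rapa 1, 4 under FK506 6 and 3 under CsA 25 mg/kg at day 28 (5 for CsA without the array with the zeros), and none rose. Coq9, needed for ubiquinone synthesis, changed by -0.44, -0.32, -0.28 and -0.35 in these groups, and Gpd2, the glycerol phosphate shuttle enzyme, by -0.71, -0.62, -0.55 and -0.56. Of 34 assembly factors outside the name rule, 4 fell (11.8%) and 1 rose under Rapa 10 mg/kg at day 28, near the 8.16% of all genes called lower. Of 73 mitochondrial ribosomal protein genes, 11 fell and none rose under Rapa 10 mg/kg on day 14, and at day 28 8 fell (11%) under Rapa 10 and 11 fell (15.1%) and 4 rose under CsA 25 mg/kg, with medians of -0.07 in both. Without the array with the zeros the CsA counts were 8 and 2, and these day 28 shares are near those of all genes (8.16% and 10.7% lower). Of 13 glycolysis genes, 5 fell (38.5%) and none rose under Rapa 10 mg/kg at day 28, and 5 fell (38.5%) and 2 rose (15.4%) under CsA 25 mg/kg. The shares of all genes at day 28 were 8.16% lower and 7.57% higher for Rapa 10, and 10.7% and 10.5% for CsA 25 mg/kg. They were 7.29% and 8.73% for FK506 6, and 5.09% and 4.75% for Rapa 1 mg/kg. On day 14 they were 4.97% and 4.08% for Rapa 1, and 5.3% and 5.19% for Rapa 10 mg/kg.

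Of 17 tested regulators of mitochondrial gene expression, 2 fell (11.8%) and 1 rose (5.88%) under Rapa 10 mg/kg at day 28, near the shares of all genes (8.16% and 7.57%): Esrra, the receptor ERR alpha, by -0.59, Ppargc1b by -0.40 and Pprc1 by 0.39. FK506 6 mg/kg gave 3 lower and 2 higher, among them Ppargc1b (-0.50), Gabpa (-0.38) and Tfam (0.23). For CsA 25 mg/kg the count was 6 lower, but without the array with the zeros it was 3. Ppargc1a, the coactivator PGC-1 alpha, changed by -1.43 ± 0.32 (SE, adjusted p = 0.000438, limma) with that array, on which its level was 4.34 against at least 9.38 in the other 3 rats, and by -0.14 ± 0.10 (adjusted p = 0.337) without it. Esrrg, Twnk and Ssbp1 likewise stood at 4.34 on that array, and none was called without it. Tfb2m, a mitochondrial transcription factor, fell with it (-0.25) and without it (-0.32).

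Markers of cell types moved beside the chain genes at day 28, and their part in the changes was not tested. The shares of all genes called lower and higher at day 28 were 10.7% and 10.5% for CsA 25 mg/kg. They were 7.29% and 8.73% for FK506 6, and 8.16% and 7.57% for Rapa 10 mg/kg. Small counts, such as the 1 of 17 proximal tubule markers under FK506 6 mg/kg, are near these shares. Under CsA 25 mg/kg 7 of 17 proximal tubule markers fell and none rose, 3 of 8 thick ascending limb markers fell and 1 rose, 4 of 6 distal convoluted tubule markers fell, all 13 macrophage and myeloid markers rose (median 0.93, 12 without the array with the zeros) and 9 of 12 tubular injury markers rose (median 1.44). None of 10 collecting duct markers was called in that group. Under FK506 6 mg/kg the proximal tubule had 1 lower, the thick ascending limb 2 lower and 1 higher, the distal convoluted tubule 3 lower, macrophages 9 higher (median 0.70) and injury 9 higher (median 1.06). Under Rapa 10 mg/kg the proximal tubule had 3 lower, the thick ascending limb and the distal convoluted tubule none in either direction, macrophages 1 lower and 1 higher (median -0.20) and injury 2 higher (median 0.52). On day 14, when the chain genes were lower under Rapa, 7 macrophage markers were lower under Rapa 10 mg/kg (median -0.65), and 2 of 17 proximal tubule markers were lower. The share of all genes called lower there was 5.3%.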

How the data were processed

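Kidney RNA of 120 rats was measured on 1 Affymetrix rat expression array each. The authors deposited linear intensities per probe set from GeneChip Operating Software, per the labels. The summary and scaling methods are not given in the sources used here. Trimmed means of the arrays lay between 232.89 and 250.1, while medians ran from 51.99 to 86.08. Intensities were turned into log2(intensity + 16), quantile normalized and fitted with limma 3.58.1 in R 4.3.3, with 1 mean per group (92 residual degrees of freedom, 2.96 from the prior). Of 31099 probe sets, 57 were controls, 20826 had 1 gene symbol, 436 several and 9780 none in the platform annotation, which can be old. The brightest probe set stood for each of 14217 genes, and the dimmest 3554 genes were left out. Tests were two-sided, with Benjamini-Hochberg adjustment within each of 45 comparisons. The members and the gene lists were chosen with earlier results of these data known. Genes were named from sets given by rule, and not every gene of each set is described. The sets were up to 4 called members with the largest change per complex and higher-dose comparison, the tissue forms, and members called at a lower dose. They also held the 3 most and 3 least variable, members called among vehicle groups, and members whose probe sets differ in sign. Under Rapa 1 mg/kg Atp5mc3 (-0.17 on day 7, -0.15 on day 14), Ndufc2 (-0.23 on day 7) and Cox6c (-0.19 on day 14) were called and are not described above. Others are said to be named after their values were seen. Replicate numbers follow the order of the samples and pair nothing. The same model was tested on simulated data before use. The number of arrays limits the precision. Alternatives were the offset, the scaling, the dim filter, all probe sets apart, an intensity trend, the arrays of the day alone, Gapdh or hybridization covariates, and leaving out arrays.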

Additional observations from a re-analysis of the deposited data

Results flagged for a closer look

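In 13 of 351 sets of 4 to 6 rats, the highest or lowest rat lay farther from the rest than Dixon's 95% limit allows. Chance gives about 5% of sets. On day 1 these were Atp5me in the vehicle rats (highest 11.951), Ndufs3 under CsA 25 mg/kg (highest 11.556) and Cox8b under Rapa 10 mg/kg (highest 5.876). On day 7 they were Cox6a1 under CsA 2.5 mg/kg (lowest 12.662) and Cox5a under FK506 0.6 mg/kg (highest 7.829). On day 14 they were the mean level of all members in the vehicle rats (highest 11.519), Cox8b under CsA 2.5 mg/kg (highest 5.688), and Sdhc (highest 12.611) and Atp5f1c (lowest 13.269) under Rapa 1 mg/kg. On day 28 they were Cox4i1 in the vehicle rats (lowest 13.185), Ndufs3 under CsA 2.5 mg/kg (highest 11.485), Cox5a under CsA 25 mg/kg (highest 7.87, on the array with the zeros) and Cox8b under FK506 6 mg/kg (highest 5.431).

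The drug effect at day 28 minus that at day 1 differed from 0 for 18 members by limma's test of the difference. Under CsA 25 mg/kg, with the day 1 arrays high in Alb kept, it was -0.235 for Atp5f1a and 0.321 for Cox7a2l. Under FK506 6 mg/kg it was -0.342 for Ndufs3, -0.313 for Ndufb6, -0.302 for Ndufs6, -0.281 for Uqcr11, -0.256 for Ndufb9, -0.253 for Atp5f1c, -0.245 for Atp5mf, -0.24 for Cox5b and -0.237 for Ndufa1. Under Rapa 10 mg/kg it was -0.74 for Atp5me, -0.346 for Ndufb6, -0.304 for Uqcr11, -0.292 for Ndufa6, -0.257 for Atp5mg, -0.247 for Cox6a1 and -0.243 for Atp5mk.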

How the results depend on the processing

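Of 186 member calls against vehicle, 47 were kept under every alternative other than leaving out rats, and none of the 186 changed sign. Rats were left out in turn only from groups of up to 5, so at day 28 no treated rat of FK506 0.6, Rapa 1 or Rapa 10 mg/kg was left out. With that limit 38 of the 47 were also kept without each of these rats. Counts of members called that moved by over 1.5 times follow, with the share of all genes called in that setting in parentheses. The cause was not tested. With the Gapdh covariate the counts were 0 (0.422%) for Rapa 1 mg/kg on day 1 and 0 (0.572%) for FK506 0.6 mg/kg on day 14. On day 7 they were then 1 (0.6%) for FK506 0.6 and 1 (2.26%) for FK506 6 mg/kg. For Rapa 1 and Rapa 10 mg/kg they were 7 (1.99%) and 7 (5.33%). With all probe sets apart they were 3 (1.87%) for FK506 6 mg/kg on day 7 and 1 (2.53%) for FK506 0.6 mg/kg on day 28. With an intensity trend FK506 0.6 mg/kg had 5 (4.52%) on day 28. With the hybridization covariate FK506 6 mg/kg had 5 (2.62%) on day 14. With the arrays of the day alone, which hold fewer rats, day 7 gave 2 (2.86%) for CsA 25 mg/kg. It gave 1 (0.928%) for FK506 0.6, 1 (1.65%) for FK506 6, 7 (2.51%) for Rapa 1 and 6 (5.59%) for Rapa 10 mg/kg. Day 14 then gave 0 (0.15%) for FK506 0.6, 0 (1.47%) for FK506 6, 11 (7.3%) for Rapa 1 and 13 (8.36%) for Rapa 10 mg/kg. Day 28 gave 14 (15.1%) for CsA 25 and 4 (5.95%) for Rapa 1 mg/kg. Without quantile normalization the counts were 2 (3.52%) and 1 (3.23%) for Rapa 1 and 10 mg/kg on day 1. They were 9 (3.33%) for FK506 6 and 36 (7.99%) for Rapa 10 mg/kg on day 7. On day 14 they were 5 (6.99%) for CsA 25 and 0 (0.722%) for FK506 0.6 mg/kg, and on day 28 9 (9.16%) for Rapa 1 mg/kg. With median centring they were 0 (2.31%) for Rapa 1 mg/kg on day 1. On day 7 they were then 18 (7.72%) for CsA 25 (17 lower) and 2 (2.02%) for FK506 6 mg/kg. For Rapa 1 and Rapa 10 mg/kg they were 35 (5.4%) and 64 (18.3%). On day 14 they were then 1 (5.64%) for CsA 25, 0 (0.366%) for FK506 0.6 and 0 (0.975%) for FK506 6 mg/kg. For Rapa 1 and Rapa 10 mg/kg they were 2 (11.4%) and 5 (11.7%). On day 28 they were 7 (23.8%) for CsA 25, 21 (14.2%) for FK506 0.6 (20 higher) and 4 (14.2%) for FK506 6 mg/kg. For Rapa 1 and Rapa 10 mg/kg they were 3 (6.73%) and 18 (11.7%). That scaling moved the median of all genes by over 0.1 in 3 comparisons, by -0.129 for Rapa 10 mg/kg on day 7, 0.102 for Rapa 1 mg/kg on day 14 and 0.102 for FK506 0.6 mg/kg on day 28. It turned the median member change to -0.201 for CsA 25 mg/kg on day 7 and to 0.161 for FK506 0.6 mg/kg on day 28. The medians of all genes there were -0.104 and 0.118.

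With rats left out in turn the counts ran from 0 to 1 for Rapa 1 mg/kg on day 1, 0 to 1 for CsA 2.5, 2 to 5 for FK506 0.6, 2 to 6 for FK506 6, 10 to 19 for Rapa 1 and 7 to 19 for Rapa 10 mg/kg on day 7. They ran from 0 to 1 for FK506 0.6, 1 to 5 for FK506 6, 9 to 21 for Rapa 1 and 12 to 22 for Rapa 10 mg/kg on day 14, and 12 to 25 for CsA 25 and, with the vehicle rats alone left out, 1 to 4 for FK506 0.6 mg/kg on day 28. The lowest Rapa counts were without vehicle replicate 1 on day 7 and vehicle replicate 2 on day 14. The lowest CsA 25 count was without its replicate 2. The share of all genes called was not recorded with rats left out in turn. No paired analysis was possible because the replicate numbers only follow the order of the samples. Members at a low signal, such as Cox8b and Cox7b2, lie near the background of the array and were not tested.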
